A study of Bos taurus with 44 samples.

Results

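The genes described here are 6 interferon-induced antiviral effectors, MX1, MX2, RSAD2, OASL, IFIT5 and IFI6, followed across every group of arrays in 2 areas of the bovine uterine lining. They were taken by symbol from the array annotation: each has 1 probe, spotted at 2 adjacent positions whose values were averaged, and together they are 6 of the 8073 genes that 1 symbol names on an array of 13824 probes. No value of a member was missing on any of the 44 arrays. Type I interferons bind a receptor made of IFNAR1 and IFNAR2, and the kinases behind it activate a complex of STAT proteins with IRF9, which switches on a large set of genes in the responding cell. In ruminants the trophoblast of the early conceptus secretes a type I interferon, interferon tau, which is the signal of maternal recognition of pregnancy, and the endometrium answers it with the same antiviral genes that a virus would induce. MX1 and MX2 are dynamin-like GTPases that act against viral nucleocapsids. RSAD2 (viperin) is a radical SAM enzyme that makes a chain-terminating nucleotide. OASL is an oligoadenylate synthetase-like protein, IFIT5 binds foreign RNA at its 5′ end, and IFI6 is a small membrane protein of the interferon response. MX2 and MX1 are neighbours in the cattle genome, and CMPK2 lies next to RSAD2, in the order given by RefSeq for the assembly ARS-UCD2.0.

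RNA came from cattle after transfer of an embryo made by in vitro fertilisation (IVF-ET), after cloning by nuclear transfer from a somatic cell (SCNT), after artificial insemination (AI), and from animals called CJ, for which the labels give the word cycle. The areas are caruncular tissue, the raised sites to which the placenta attaches, and intercaruncular tissue between those sites. AI animals of the IVF-ET arrays are named IAT and those of the SCNT arrays IAJ, and none is in both. Each array held RNA of 2 samples, 1 in each dye. IVF-ET and AI were set against each other on 10 caruncular arrays (5 IVF-ET and 5 AI animals) and on 10 intercaruncular arrays (5 and 5 again), each animal once in each dye, in a closed loop. The loops share their 5 IVF-ET animals and 3 of 7 AI animals. SCNT met AI directly on 4 caruncular arrays, as 2 SCNT pools and 2 AI pools with swapped dyes; no source used here gives the number of animals in a pool. In intercaruncular tissue SCNT and AI met only through CJ, on 10 arrays of 5 SCNT and 5 CJ animals and 10 arrays of 4 AI and the same 5 CJ animals. No source used here gives the day of collection or the animals' age.

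All values are log2 ratios, with the first-named group over the second, so 1 is a doubling. Only the correlations between genes or between spots, and the sums round a loop, use the dye ratios as deposited, not turned to the first-named group. The labels do not say which dye is the numerator, and Cy5 over Cy3 was taken as likely. That reading rests on genes outside the set: the oxytocin receptor gene OXTR was then lower in SCNT than in CJ animals on 10 of 10 arrays (-4.24 to -2.27) and lower in AI than in CJ animals on 10 of 10 arrays (-4.80 to -0.93), and the conceptus genes IFNT2, TKDP1 and PAG9 were higher in SCNT than in CJ animals, by 0.66, 0.88 and 0.63. PGR, the progesterone receptor gene, fell by 1.17 in SCNT and by 0.51 in AI against CJ (adjusted p = 5.35e-07 and 0.00454), or by 0.67 in AI without AI animal 3, whose 4 arrays lay between -0.31 and -0.21. With the other reading every sign below turns. Since the files hold ratios, not brightness, neither the level of a gene nor the presence of a tissue marker can be read from them, and ratios of different probes are not set against each other. In whole tissue, fewer cells of a type and less RNA per cell cannot be told apart.

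Some arrays stood apart from the rest of their group, before any result on the 6 genes is given. AI animal 3 of the arrays with CJ was used on 4 of the 10 arrays, of which 2 paired it with CJ animal 3 in swapped dyes, and the 6 genes lay between -1.08 and 0.12 on all 4. A set of 3 intercaruncular IVF-ET arrays, chosen after their values were seen, carried ratios of the members from -5.09 to 4.79, where the other 7 ran from -0.88 to 1.14. These were IVF-ET animal 5 with AI animal 4, IVF-ET animal 5 with AI animal 3, and IVF-ET animal 4 with AI animal 2. Over 13776, 13768 and 13776 probes without interferon genes, their profiles correlated with the SCNT against CJ profile at r = -0.518, 0.435 and 0.172, against -0.144 to 0.0510 on the other 7 arrays of that loop and -0.140 to 0.112 on the 10 caruncular ones. These correlations are across probes, which are not independent replicates. For results on the 6 genes, the gene lists and the correlations, values without these arrays are given beside those with them; this was decided after the data were seen.

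**Figure D1:**
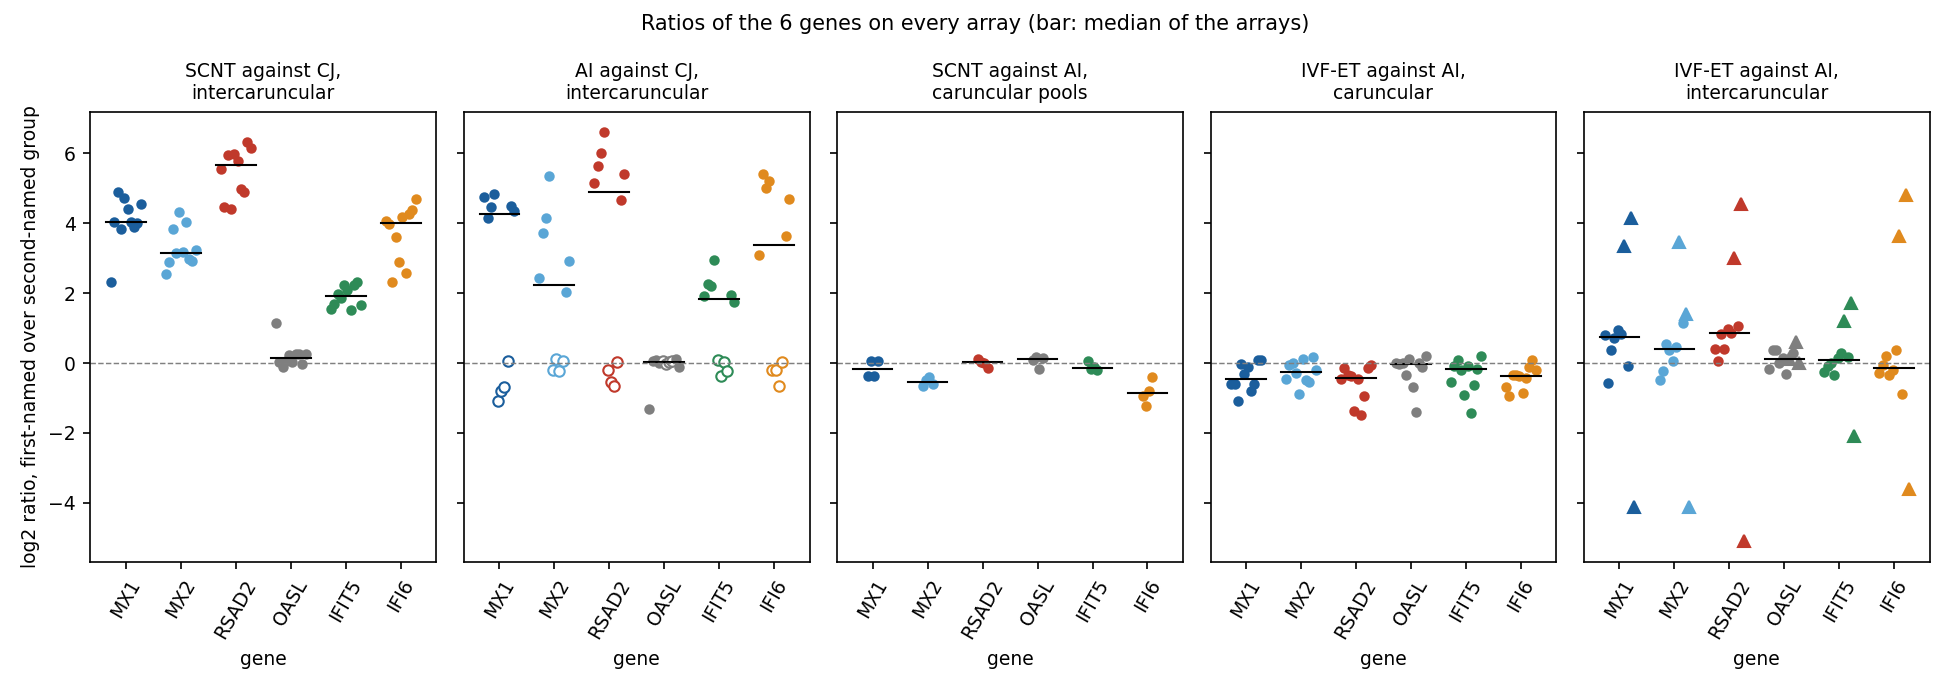
Log2 ratio (y axis) of each of the 6 genes (x axis) on every array, in 1 panel per group of arrays; bars are medians, open circles the 4 arrays of AI animal 3, and triangles the 3 intercaruncular IVF-ET arrays that stood apart. Against CJ, 5 of the genes sit far above 0 except on the arrays of AI animal 3, OASL has its median near 0 in all panels, and the triangles lie on both sides of 0.

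In intercaruncular tissue, 5 of the 6 genes rose in SCNT animals against CJ animals, on 10 of 10 arrays each, and the same 5 rose in AI animals against CJ animals (limma, Benjamini-Hochberg adjusted over all probes). Of all probes, 23.4% were called in SCNT against CJ (11.2% higher) and 16.7% in AI against CJ (7.92% higher). All 10 arrays of SCNT against CJ were above 0 for 5.23% of probes. OASL passed the test in neither comparison. The 2 comparisons share their CJ animals.

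Among the GTPases, MX1 ratios over CJ were 2.32 and 4.02 in SCNT animal 1, 4.87 and 3.82 in animal 2, 4.71 and 4.39 in animal 3, 4.02 and 3.89 in animal 4, and 4.01 and 4.54 in animal 5. All were far above 0, and the lowest belonged to animal 1 with CJ animal 3. In the AI animals MX1 was 4.74 and 4.15 in animal 1, 4.45 and 4.83 in animal 2, and 4.49 and 4.35 in animal 4, but -1.08, -0.81, -0.70 and 0.062 in animal 3. AI animals 1, 2 and 4 thus overlapped the SCNT animals, and animal 3 lay below every one of them. The fit put MX1 higher by 4.06 ± 0.56 in SCNT (SE, 16.6-fold, adjusted p = 2.05e-05) and by 2.60 ± 0.58 in AI (6.07-fold, adjusted p = 0.00291). Without AI animal 3 the AI value was 4.501.

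MX2, whose probe is separate from that of MX1, followed the same pattern with other proportions. Its ratios ran from 2.53 to 4.30 over the 10 SCNT arrays (median 3.16). AI animal 2 was highest, at 4.14 and 5.33, while animal 1 had 2.42 and 3.73, animal 4 had 2.03 and 2.93, and animal 3 had -0.20, 0.12, -0.23 and 0.067. The rise was 3.30 ± 0.44 in SCNT (9.86-fold, adjusted p = 1.33e-05) and 2.14 ± 0.45 in AI (4.404-fold, adjusted p = 0.002001), or 3.43 without AI animal 3. Whether the MX1 and MX2 probes bind each other's transcripts was not tested.

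RSAD2, the nucleotide-modifying enzyme, had the ratios 5.54 and 4.46 in SCNT animal 1, 5.94 and 4.41 in animal 2, 5.96 and 5.77 in animal 3, 4.97 and 4.90 in animal 4, and 6.30 and 6.15 in animal 5. In AI it was 5.15 and 5.63 in animal 1, 6.002 and 6.60 in animal 2, and 4.65 and 5.41 in animal 4, against -0.20, -0.55, -0.66 and 0.036 in animal 3. No SCNT array came near 0, and neither did those of the other AI animals. The rise was 5.44 ± 0.66 in SCNT (43.5-fold, adjusted p = 4.32e-06) and 3.39 ± 0.67 in AI (10.5-fold, adjusted p = 0.00121), with 5.57 in AI when animal 3 was left out.

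IFIT5, the RNA-binding member, spanned 1.501 to 2.32 over the SCNT arrays (median 1.92). It was 1.93 and 2.27 in AI animal 1, 2.21 and 2.93 in animal 2, 1.94 and 1.76 in animal 4, and 0.075, -0.36, 0.019 and -0.22 in animal 3. The SCNT arrays varied little and overlapped the arrays of AI animals 1, 2 and 4. The fitted rise was 1.91 ± 0.26 in SCNT (3.75-fold, adjusted p = 1.72e-05) and 1.32 ± 0.27 in AI (2.505-fold, adjusted p = 0.00134), or 2.17 in AI without animal 3.

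IFI6 ranged from 2.33 to 4.68 over the SCNT arrays (median 4.01). It was 3.09 and 5.41 in AI animal 1, 5.01 and 5.20 in animal 2, 3.63 and 4.70 in animal 4, and -0.21, -0.21, -0.66 and 0.022 in animal 3. It rose by 3.69 ± 0.57 in SCNT (12.9-fold, adjusted p = 6.55e-05) and by 2.75 ± 0.59 in AI (6.71-fold, adjusted p = 0.00217), or by 4.51 in AI without animal 3. Among the SCNT animals the order differed by gene: animal 5 had the highest mean for RSAD2 and IFI6, and animal 3 the highest for MX1, MX2 and IFIT5.

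OASL lay close to 0 on most arrays where the others were high. Its ratios lay between -0.13 and 1.15 over the SCNT arrays, with a median of 0.14, and 1.15 was a single array of SCNT animal 1 with CJ animal 3. In AI it was between -0.12 and 0.12 on 9 arrays and -1.32 on the array of animal 1 with CJ animal 1. The fitted difference was 0.21 ± 0.13 in SCNT (adjusted p = 0.278, 95% interval -0.052 to 0.47) and -0.11 ± 0.13 in AI (adjusted p = 0.729, interval -0.38 to 0.16). The 2 spots of this probe correlated at 0.627 over the 44 arrays, against 0.990 to 0.999 for the other 5 probes, whose ratios spanned a wider range. The median difference between its spots was 0.118, within the 0.060 to 0.138 of the other 5 probes. The brightness of its spots was not analysed here.

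**Figure D2:**
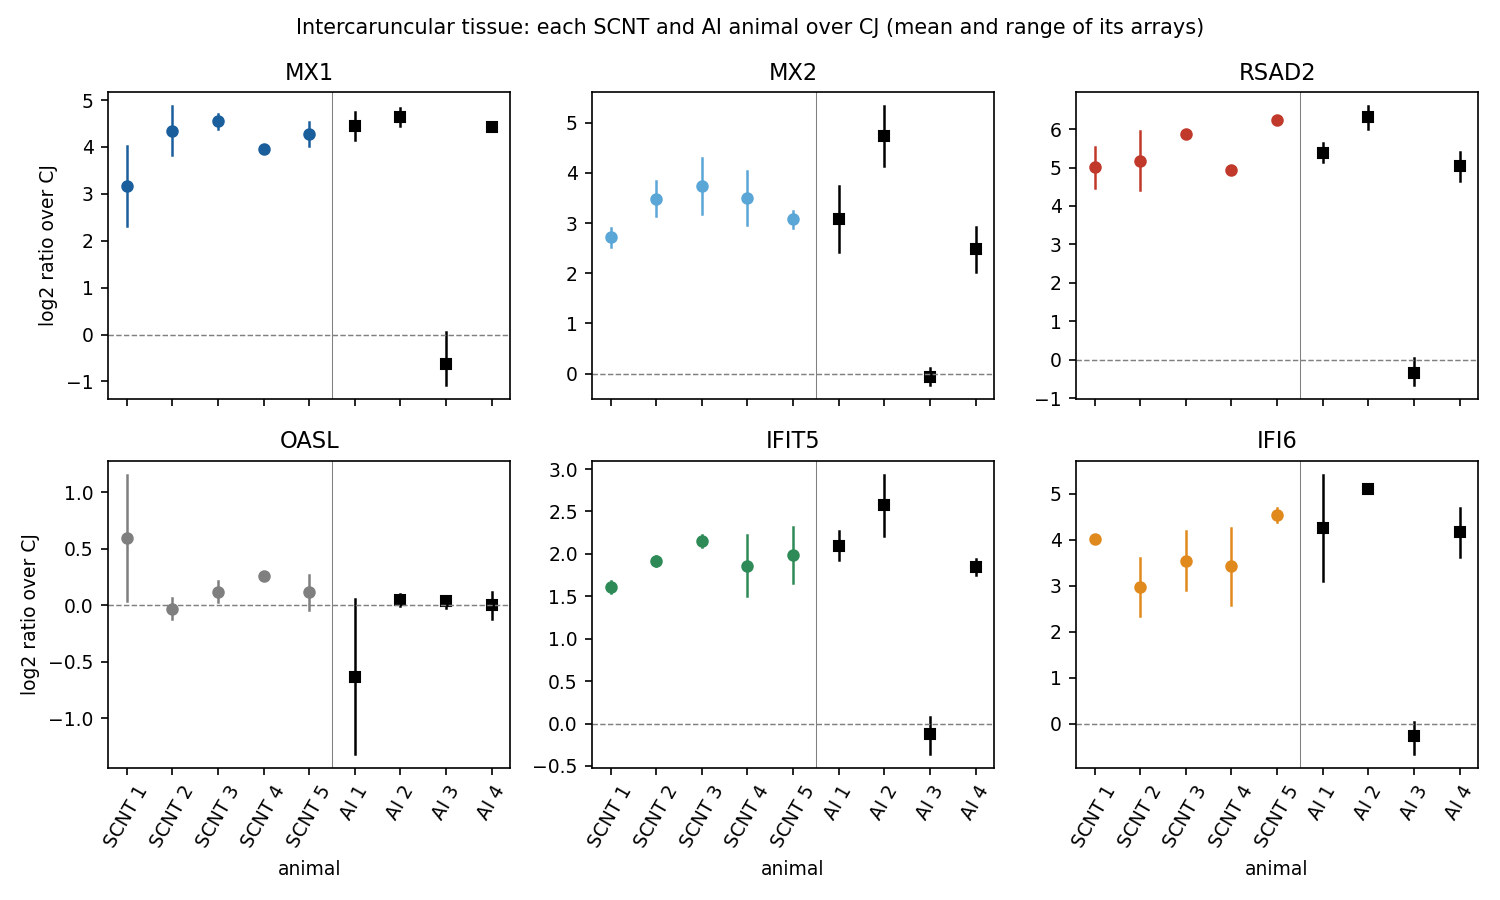
Log2 ratio over CJ (y axis) in intercaruncular tissue for each SCNT animal (circles) and AI animal (squares), 1 panel per gene; points are means and lines the range of an animal's arrays (4 arrays for AI animal 3, 2 for each other animal). The MX1 mean of AI animal 3 was -0.63, against 4.42 to 4.64 in the other AI animals, and OASL has its own pattern.

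AI animal 3 was not at the CJ level for every gene of pregnancy. On its 4 arrays OXTR was between -1.33 and -0.93, less far from 0 than in the other AI animals (-4.80 to -2.59), and SNAI2, a transcription factor of mesenchymal cells, was between -2.75 and -1.67, within reach of the -3.07 to -1.94 of the other AI animals. COL1A1, a collagen of stromal cells, was between -0.25 and 0.67 in animal 3 and between -3.29 and -2.46 in the other 3. SNAI2 was chosen after its values were seen. No source used here says whether this animal carried a conceptus.

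Averaged over animals, the AI animals without animal 3 had MX1 at 4.501 ± 0.12, MX2 at 3.43 ± 1.17, RSAD2 at 5.57 ± 0.65, IFIT5 at 2.17 ± 0.37 and IFI6 at 4.51 ± 0.52 over CJ (SD over 3 animals). The SCNT animals had MX1 at 4.06 ± 0.54, MX2 at 3.30 ± 0.41, RSAD2 at 5.44 ± 0.57, IFIT5 at 1.91 ± 0.20 and IFI6 at 3.69 ± 0.60 (SD over 5 animals). With animal 3 among them, the AI means were 3.22 ± 2.57 for MX1, 2.56 ± 1.99 for MX2, 4.10 ± 3.01 for RSAD2, 1.60 ± 1.19 for IFIT5 and 3.31 ± 2.42 for IFI6 (SD over 4 animals).

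SCNT was then set against AI through CJ, which both had met. All 6 genes had a fitted value above 0 and none passed the test, where 0.304% of all probes were called (0.268% higher and 0.0362% lower). The differences were 1.46 ± 0.75 for MX1 (adjusted p = 0.651), 1.16 ± 0.59 for MX2 (0.638), 2.05 ± 0.88 for RSAD2 (0.532), 0.32 ± 0.17 for OASL (0.665), 0.58 ± 0.35 for IFIT5 (0.751) and 0.95 ± 0.77 for IFI6 (0.883), with SE from the fit. At an unadjusted p under 0.05, RSAD2 alone was higher, as were 4.07% of all probes. Without AI animal 3 the values were -0.44 for MX1, -0.13 for MX2, -0.13 for RSAD2, -0.27 for IFIT5 and -0.81 for IFI6, so 5 signs turned, and OASL stood at 0.41. No other animal turned a sign when left out, and the value of RSAD2 then lay between 1.45 and 2.81.

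**Figure D3:**
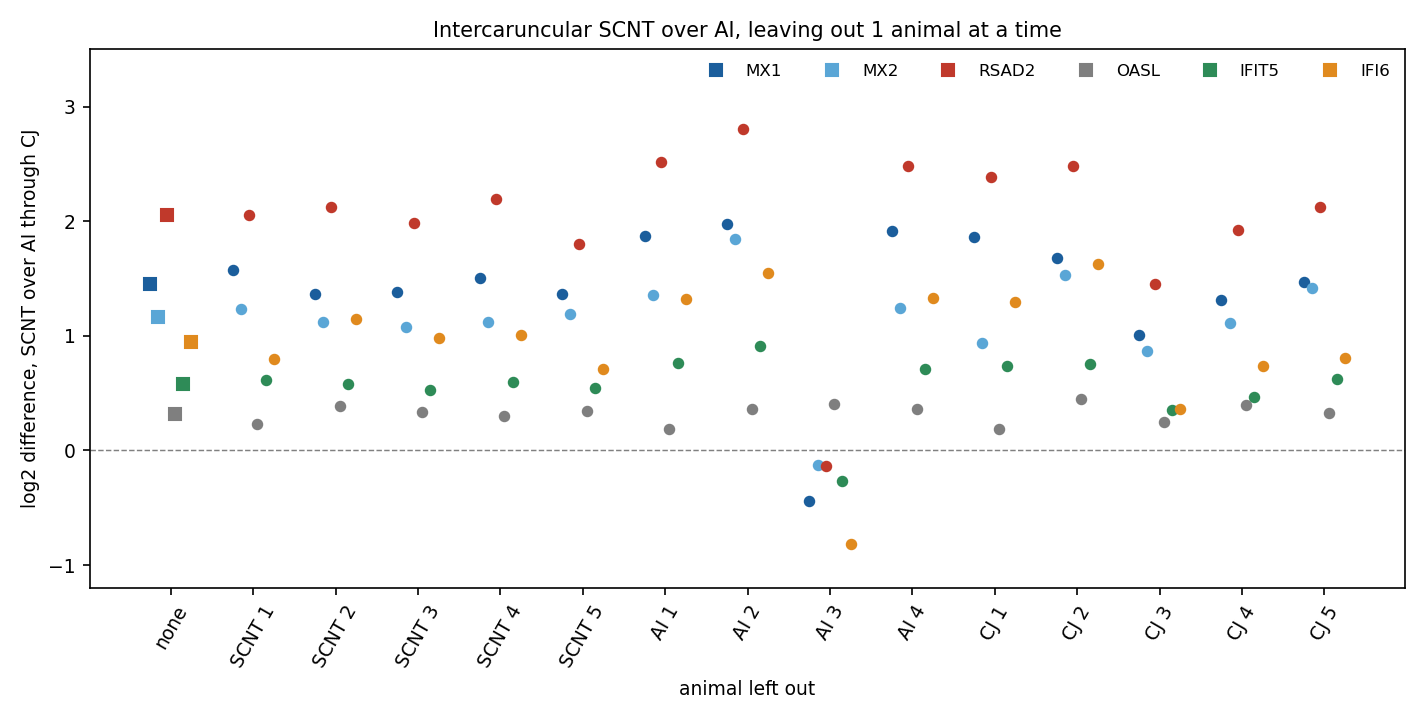
Fitted log2 difference of SCNT over AI through CJ (y axis) for the 6 genes, with all animals (squares) and with 1 animal left out at a time (circles, x axis). The 5 genes other than OASL lie below 0 only when AI animal 3 is left out.

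The wider interferon response was read from a list of 55 other interferon-induced genes, 24 of them measured. In SCNT against CJ, 22 of the 24 rose and none fell, where 11.2% of all probes rose. The median difference was 1.21 against 0.014 over all probes. In AI against CJ, 20 of 24 rose and none fell, with a median of 0.90 against 0.013, where 7.92% of all probes rose. In AI without animal 3, 23 of 24 rose and none fell, with a median of 1.46, where 10.1% of all probes rose. The smallest p-values in both comparisons belonged to TRIM25, an E3 ligase of RNA sensing, IRF1, a transcription factor of the response, and CMPK2, a nucleotide kinase. TRIM25 was higher by 0.99 ± 0.11 in SCNT and 0.63 ± 0.12 in AI, IRF1 by 0.89 ± 0.11 and 0.69 ± 0.11, and CMPK2 by 2.17 ± 0.27 and 1.32 ± 0.28 (SE, adjusted p from 2.49e-06 to 0.00191). With AI animal 3 left out, the AI values were 0.87 for TRIM25, 0.89 for IRF1 and 2.15 for CMPK2. SAMHD1, a nucleotide hydrolase, passed in neither comparison, at 0.042 in SCNT and 0.076 in AI. PSMB9, an immunoproteasome subunit, missed the threshold in SCNT (0.88, adjusted p = 0.052), and EIF2AK2, ZC3HAV1 and TAP1 missed it in AI (adjusted p = 0.05003, 0.185 and 0.0560). These last 3 passed in AI without animal 3, with differences of 1.24, 0.36 and 0.57.

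Upstream of the effectors, 4 of 6 measured transcription factors rose in SCNT (IRF1, IRF3, IRF7 and IRF9) and 3 of 6 in AI (IRF1, IRF3 and IRF7). The shares of all probes that rose were 11.2% in SCNT and 7.92% in AI (10.1% without AI animal 3). IRF7, the factor that amplifies the response, was higher by 1.07 ± 0.24 in SCNT and by 0.83 ± 0.25 in AI. The RNA sensor IFIH1 rose by 1.12 ± 0.25 in SCNT and 0.77 ± 0.26 in AI, and its adaptor MAVS passed in neither. The receptor genes IFNAR1 and IFNAR2 passed in neither comparison, with differences between -0.091 and 0.14. JAK1, the receptor's kinase, rose by 0.27 ± 0.095 in SCNT and by 0.40 ± 0.097 in AI. Of 4 inhibitors, none passed in SCNT and PIAS1 rose in AI by 0.39 ± 0.12. Without AI animal 3, the AI values were 1.22 for IRF7, 1.24 for IFIH1 and 0.55 for JAK1, IRF9 passed as well (1.49, adjusted p = 0.00438), and PIAS1 no longer did (0.44, adjusted p = 0.0503).

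The ratios of an interferon tau transcript did not follow those of the effectors animal by animal. Interferon tau protein was not measured, and how these transcript ratios relate to it was not tested. IFNT2, an interferon tau gene of the trophoblast, was 2.05 and 2.30 in SCNT animal 4 and 0.56 and 1.03 in animal 1, and between -0.10 and 0.25 in SCNT animals 2, 3 and 5, where MX1 was 3.82 to 4.87. In AI it was between -1.08 and 0.28. It rose by 0.66 ± 0.21 in SCNT (adjusted p = 0.0290) and stood at -0.0079 ± 0.22 in AI (adjusted p = 0.995, and -0.043 without AI animal 3). Its lowest array, -1.08, was AI animal 1 with CJ animal 1, the array on which OASL was -1.32.

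Marker genes of some cell types changed against CJ too, the stromal ones most often. In SCNT against CJ, 7 of 7 measured stromal markers fell (median -2.85, of 12.2% of all probes that fell), and in AI against CJ 4 of 7 fell (median -1.38, of 8.76%). COL1A1 fell by 2.86 in SCNT and by 1.71 in AI. Without AI animal 3, 7 of 7 stromal markers fell in AI (median -2.56, of 10.3% of all probes that fell) and COL1A1 fell by 2.79. Among 7 epithelial markers, CDH1, CLDN3 and CLDN7 rose in both comparisons, and KRT19 fell in SCNT, and in AI too without AI animal 3 (-1.03). Of 11 leukocyte markers, none passed in SCNT, and AIF1, NKG7 and CD14 rose in AI, by 0.34 at most; without AI animal 3 only CD3D of the 11 passed, at 0.60. Of 3 endothelial markers, PECAM1 fell in both comparisons, by 0.76 in SCNT and 0.53 in AI (0.62 without AI animal 3). Of 8 trophoblast markers, TKDP1, TKDP4, PAG9 and IFNT2 rose in SCNT and none passed in AI. Among all probes, 11.2% rose in SCNT and 7.92% in AI. The part of the cell mixture in the rise of the 6 genes was not tested, and levels of these markers cannot be read from ratios.

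In the caruncular pools, where SCNT met AI directly, the 5 genes that rose against CJ did not move as 1 set. IFI6 was -0.94 and -1.22 on the arrays of SCNT pool 1 and -0.79 and -0.40 on those of SCNT pool 2, against the AI pools. MX2 was -0.67 and -0.49 with SCNT pool 1 and -0.60 and -0.39 with SCNT pool 2. These 2 genes lay below 0 on 4 of 4 arrays, as did 10.6% of all probes. RSAD2 was 0.12, 0.040, -0.0097 and -0.15, on both sides of 0.

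Of the 6 genes none passed the adjusted test in the pools (percent called 0 over all probes, with limma). At an unadjusted p under 0.05, MX2 and IFI6 were lower, as were 6.31% of all probes. The differences were -0.54 ± 0.084 for MX2 (adjusted p = 0.130) and -0.84 ± 0.13 for IFI6 (adjusted p = 0.133). MX1 differed by -0.16 ± 0.082, IFIT5 by -0.099 ± 0.085, OASL by 0.059 ± 0.089 and RSAD2 by 0.00016 ± 0.089, with adjusted p from 0.4998 to 1.00. With the 4 arrays taken as separate samples, MX2 and IFI6 passed (adjusted p = 0.0311 and 0.0368), where 257 of 13824 probes were called. Those 4 arrays are dye swaps of the same pairs of pools, so this setting counts technical repeats as samples. With the first spot of each probe alone IFI6 passed (adjusted p = 0.0459), where other probes were called too. Conceptus genes lay higher in the same SCNT pools: IFNT2 was 2.26, 1.999, 0.42 and 0.51, and TKDP1 was between 1.08 and 3.24. Over the marker lists, 8 of 8 trophoblast genes were above 0 (median 1.07) and 7 of 7 epithelial genes below 0 (median -0.34). The median over all probes was 0.0030, and none of these genes passed the adjusted test. Their part in the values of the 6 genes was not tested.

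In caruncular tissue after IVF-ET, all 6 genes had fitted values below 0 against AI, and none passed the adjusted test. RSAD2 was lower on 10 of 10 arrays, with -0.45 and -0.15 in IVF-ET animal 1, -0.34 and -0.38 in animal 2, -1.39 and -0.45 in animal 3, -1.49 and -0.94 in animal 4, and -0.15 and -0.052 in animal 5. The 2 arrays farthest from 0 were those with AI animal 2. Of all probes, 0.217% were below 0 on all 10 arrays. IFI6 was lower on 9 of 10 arrays (-0.94 to 0.093), MX1 and IFIT5 on 8 (-1.08 to 0.091 and -1.42 to 0.20), MX2 on 7 (-0.88 to 0.18) and OASL on 6 (-1.41 to 0.20). By the mean of an animal's 2 arrays, IVF-ET animal 5 stood nearest to 0 for every gene but OASL, for which animal 1 did. The MX1 of animal 5 was 0.091 and 0.075, above 0 on both arrays, where no other array was.

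The fitted differences were -0.58 ± 0.15 for RSAD2 (adjusted p = 0.366), -0.42 ± 0.099 for IFI6 (0.337), -0.40 ± 0.12 for MX1 (0.415), -0.37 ± 0.15 for IFIT5 (0.498), -0.26 ± 0.11 for MX2 (0.506) and -0.22 ± 0.13 for OASL (0.624). Over all probes 0.0217% were called. At an unadjusted p under 0.05, 5 of the 6 genes were lower, OASL being the exception, and so were 4% of all probes. None of the 6 was higher at that level, against 5.09% of all probes. For RSAD2 the ratio was 1.49-fold lower, with a 95% interval from -0.92 to -0.24 on the log2 scale. Among the other interferon-induced genes, 22 of 24 were below 0 (median -0.17 against -0.0079 over all probes), none passed the adjusted test, and RTP4, HERC6, USP18 and CXCL10 were lower at an unadjusted p under 0.05. IFNT2 was 2.02 and 1.82 on the arrays of IVF-ET animal 1, where MX1 was -0.60 and -0.59, and between -0.57 and 0.58 on the other arrays. The epithelial markers were above 0 in 7 of 7 cases (median 0.18), the trophoblast markers in 7 of 8 (median 0.40), and the stromal markers below 0 in 6 of 7 (median -0.14), with none past the adjusted test. Their part in the values of the 6 genes was not tested.

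**Figure D4:**
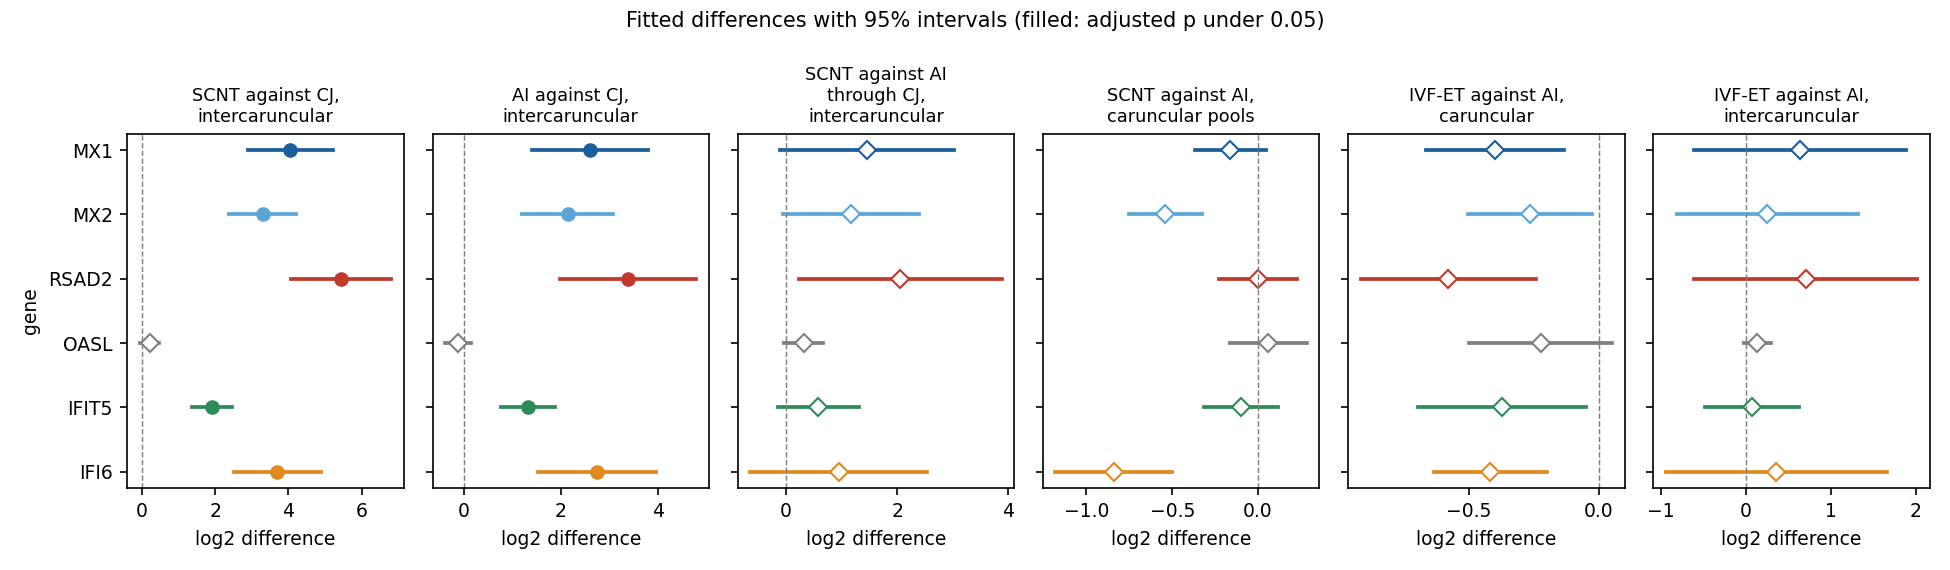
Fitted log2 difference (x axis, a scale of its own in each panel) with its 95% interval for the 6 genes (y axis) in 6 comparisons; filled circles have an adjusted p under 0.05 and open diamonds do not. The 5 filled genes appear only against CJ, caruncular IVF-ET values are all below 0, and intercaruncular IVF-ET intervals all include 0.

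In intercaruncular tissue after IVF-ET the same genes were spread over a wide range. MX1 against AI was 0.79 and -0.58 in IVF-ET animal 1, 0.37 and 0.72 in animal 2, and 0.95 and 0.84 in animal 3. IVF-ET animal 4 had 3.34 with AI animal 2 and -0.099 with AI animal 4, and IVF-ET animal 5 had 4.13 with AI animal 3 and -4.10 with AI animal 4. On its arrays, animal 5 thus read far above 1 AI animal and far below another. RSAD2 ran the same way, at 4.54 and -5.09 in animal 5 and 3.01 and 1.06 in animal 4, and its 2 spots on the array of animal 4 with AI animal 2 read 4.05 and 1.97. IFI6 was 4.79 and -3.60 in animal 5, IFIT5 1.72 and -2.09, and MX2 1.40 and -4.12, while OASL was 0.61 and -0.013.

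On the same 3 arrays genes outside the set moved too. COL1A1 was 3.05 on the array of IVF-ET animal 5 with AI animal 4, -2.87 with AI animal 3, and -3.89 on the array of IVF-ET animal 4 with AI animal 2. OXTR was 2.59, -1.13 and -0.23 on these arrays, and IFNT2 was -2.44, 0.16 and -0.75. Their part in the values of the 6 genes was not tested.

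The closed loop gives a check on these arrays, because the difference between any pair of animals can be read along both of its sides. Through IVF-ET animal 5, MX1 was 8.24 higher in AI animal 4 than in AI animal 3, and through the other 8 arrays it was 5.06 higher. For RSAD2 those values were 9.63 and 1.75, and for IFI6 8.39 and 4.35. Summed round the loop, the mismatch was 3.18 for MX1 and 7.88 for RSAD2, against a median of 1.54 over all probes. A larger mismatch was seen for 0.160% of probes than for RSAD2, and for 15.2% than for MX1. Any dye bias of a probe adds up in this sum. In the caruncular loop the mismatch was 1.08 for MX1 and 0.055 for RSAD2, against a median of 0.688.

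None of the 6 genes passed the test in the intercaruncular loop, in which 0.00724% of all probes were called. The differences were 0.64 ± 0.58 for MX1, 0.26 ± 0.49 for MX2, 0.70 ± 0.61 for RSAD2, 0.14 ± 0.075 for OASL, 0.077 ± 0.25 for IFIT5 and 0.36 ± 0.60 for IFI6 (SE, adjusted p from 0.605 to 0.955). Without the 3 arrays they were 0.47 for MX1, 0.25 for MX2, 0.65 for RSAD2, 0.066 for OASL, -0.019 for IFIT5 and -0.17 for IFI6, so the last 2 turned their sign. On the 7 other arrays RSAD2 was above 0 each time (0.055 to 1.06), MX1 on 5 (-0.58 to 0.95), MX2 on 5 (-0.50 to 1.14), IFIT5 on 4 (-0.34 to 0.29) and IFI6 on 2 (-0.88 to 0.37). The share of all probes above 0 on each of these 7 arrays was not computed.

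The effect of IVF-ET was then compared between the areas in 1 fit over both loops. All 6 genes had a lower value in the caruncular area, by -1.04 for MX1, -0.52 for MX2, -1.28 for RSAD2, -0.36 for OASL, -0.45 for IFIT5 and -0.78 for IFI6, and none passed the adjusted test (adjusted p from 0.5684 to 0.839, with 0.00723% of all probes called). OASL alone had an unadjusted p under 0.05, as did 3.72% of all probes in that direction. Its 2 spots on the caruncular array of IVF-ET animal 4 with AI animal 2 read -0.49 and -2.34. The OASL difference was -0.23 without IVF-ET animal 4, and -0.48 to -0.25 over the alternatives that kept all animals. Without the 3 arrays the differences were -0.87 for MX1, -0.52 for MX2, -1.23 for RSAD2, -0.29 for OASL, -0.35 for IFIT5 and -0.24 for IFI6, and none passed.

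Of the animal pairs, 6 were hybridised in both areas with the same dyes. IVF-ET animal 4 over AI animal 2 had MX1 at -0.81 in the caruncular area and 3.34 in the intercaruncular one, and RSAD2 at -1.49 and 3.01. IVF-ET animal 5 over AI animal 4 had MX1 at 0.091 and -4.10, and RSAD2 at -0.15 and -5.09. The wide intercaruncular ratios of IVF-ET animal 5 over AI animal 4 thus had no counterpart in caruncular tissue. IVF-ET animal 4 over AI animal 2 lay on opposite sides of 0 in the areas. Its mean over the 5 genes other than OASL was -0.93 in caruncular tissue, the farthest from 0 in that loop, and 2.93 in intercaruncular tissue. RSAD2 was higher in the intercaruncular than in the caruncular area in the 5 pairs other than IVF-ET animal 5 with AI animal 4. It was, for example, at -0.15 and 0.055 in IVF-ET animal 1 over AI animal 7 and at -0.45 and 0.86 in IVF-ET animal 3 over AI animal 7. The pairs share animals and are not separate replicates.

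**Figure D5:**
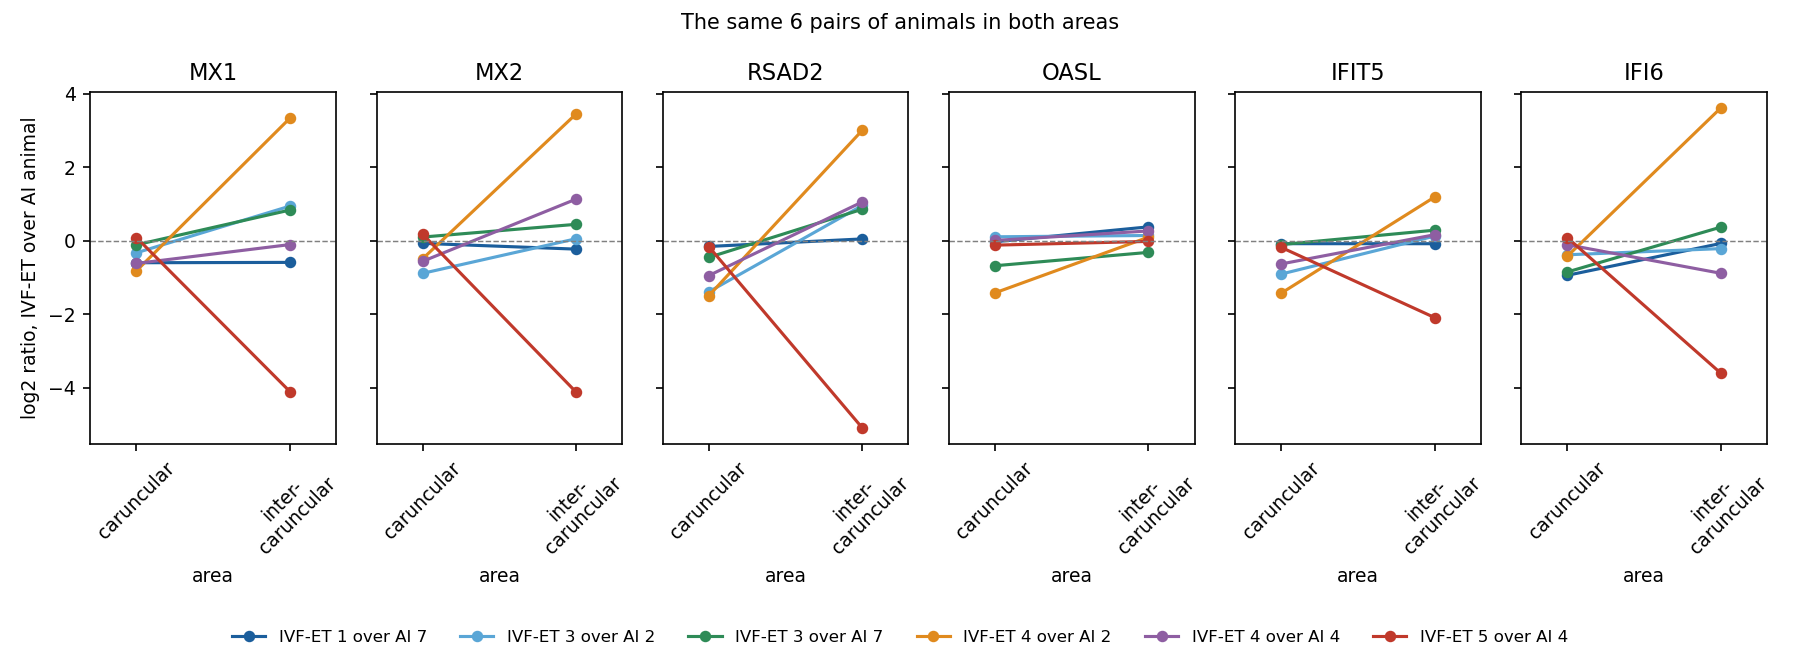
Log2 ratio of an IVF-ET over an AI animal (y axis) in caruncular and intercaruncular tissue (x axis) for the 6 pairs of animals hybridised in both areas, 1 panel per gene; a line joins the 2 areas of a pair. The other 4 pairs lie between -1.39 and 1.14, while IVF-ET 4 over AI 2 and IVF-ET 5 over AI 4 part widely in the intercaruncular area for every gene but OASL.

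Over all arrays, the deposited dye ratios of 5 of the genes correlated closely with each other, and those of OASL did not. Over the 44 arrays the 10 pairs of genes without OASL had Pearson r from 0.930 to 0.983, and the 5 pairs with OASL from 0.107 to 0.186. These are descriptions: arrays share animals, and a few groups of arrays with large ratios set most of the range. Because dyes were swapped between arrays, a rise against CJ reads positive on some arrays and negative on others. Any genes that rise together against CJ thus have a high r from that rise alone, and this holds for the likeness to the members' mean too. Within the caruncular loop, where ratios are small, the pairs without OASL had r from 0.478 to 0.957 and those with OASL from 0.448 to 0.734. Without AI animal 3 and the 3 arrays that stood apart, the ranges over the remaining 37 arrays were 0.941 to 0.985 without OASL and 0.0659 to 0.142 with it. Over both loops they were 0.799 to 0.964 and 0.177 to 0.430 on 20 arrays, but 0.0875 to 0.780 and 0.297 to 0.611 on the 17 arrays without those 3. The high r over both loops thus rested on 3 arrays, which were chosen for the members' wide ratios. Leaving them out narrows the range of these ratios, so the lower r cannot show whether the genes are related on the other arrays. Outside the set, the 6 genes whose ratios were most like the mean of the members over the 44 arrays were ISG15 (0.981), IFI16 (0.976), ZNFX1 (0.9753), LOC282255 (0.974), CMPK2 (0.974) and USP18 (0.974). Over the 20 arrays of both loops they were ISG15 (0.961), EPSTI1 (0.960), IFI16 (0.947), USP18 (0.933), IFIT3 (0.925) and LOC282255 (0.920). The 37 arrays gave the same 6 genes as the 44 (0.973 to 0.981), while the 17 arrays gave C1S (0.837), CD81 (0.827), USP18 (0.825), LOC512672 (0.809), EPSTI1 (0.795) and IFIT3 (0.788). ISG15, a ubiquitin-like modifier, had differences of 4.65 in SCNT and 2.82 in AI against CJ, and USP18, the protease that removes it, 1.83 and 1.08. AI animal 3 averaged -0.23 for ISG15, against 3.93 to 5.56 in the other AI animals, and without it the AI values were 4.61 for ISG15 and 1.81 for USP18.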

How the data were processed

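The deposited values are log2 ratios of 2 dyes, 1 per spot: all 331 values below -4 (100.0%) matched log2 of a 4-decimal ratio within 6e-05. Per the labels' protocols, purified RNA was copied from oligo-dT primers and coupled to Cy3 or Cy5. No source used here gives the background correction or normalization. Array medians were -0.024 to 0.00995 and SDs 0.221 to 0.62, and the values were used as deposited. The number of animals limits the precision.

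Both spots of a probe were averaged. Of 13824 probes, 8645 have 1 symbol in the supplied annotation, 105 several and 5074 none; 8620 symbols were updated from RefSeq by gene number. Probes with values on at least 80% of a fit's arrays entered limma 3.58.1 (R 4.3.3): generalised least squares, a term for dye, and a shared correlation between arrays with an animal in common (0.132 caruncular, 0 intercaruncular, 0.0736 with CJ). P-values were adjusted by Benjamini-Hochberg over all probes, with the threshold 0.05. The fits other than that of the pools were tested on simulated data, in which no animal stood apart. Swapped pool arrays were averaged by pair and tested against 0. Animals or pools are the biological replicates, but outside the pools the fits take arrays, linked only by the shared correlation. As this was near 0, arrays of an animal counted as almost independent, and the p-values do not measure the spread between animals alone. Since the labels do not say that the pools hold different animals, p-values for pools cannot be read as a measure of the spread between animals. With so few pairs of pools, the SE from limma also draws on the variance of all probes. The p-values for pools thus do not measure the spread between the pools alone. Figures were drawn with Python 3.11.15.

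Besides the 6 genes, the text names the 3 other pathway genes with the smallest p, the 6 most like the members' mean, and OXTR, PGR, IFNT2, TKDP1 and PAG9. Other genes were named after their values were seen. The members and lists were chosen with earlier results of these data known. Single spots, centring, scaling, other correlations, no dye term and each animal left out were tried as alternatives.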

Additional observations from a re-analysis of the deposited data

Results flagged for a closer look

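Of 24 groups of 4 to 10 samples tested for a single sample far from its fellows, 2 stood out, and chance gives about 1 in 20. MX1 over CJ averaged -0.63 in AI animal 3, the lowest of 4 AI animals, and the next was 4.42. OASL over CJ averaged -0.63 in AI animal 1, the lowest of 4, and the next was 0.00035, through 1 array at -1.32.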

How the results depend on the processing

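For the 6 genes, direction and side of the threshold held in 114 of 114 recomputed values for caruncular IVF-ET against AI, 112 of 120 for the intercaruncular loop, 137 of 138 for the difference between areas, 42 of 48 for the pools, 138 of 138 for SCNT against CJ, 136 of 138 for AI against CJ and 133 of 138 for SCNT against AI through CJ; where they did not, the cause was not tested. The number of probes called in the caruncular loop, 3, became 0 with the first spot, 1 with the second spot, 0 after scaling and 0 with a correlation of 0.4, and 0 to 2 when an animal was left out. In the intercaruncular loop 1 became 0 with the first spot, 0 after scaling, 2 without a dye term, 0 with a correlation of 0.4, 0 without the 3 arrays that stood apart (an alternative chosen after seeing the data), and 0 to 0 when an animal was left out. For the difference between areas 1 became 0 with the second spot, after scaling, with a correlation of 0.4, and, both chosen after seeing the data, with the probe's own correlation and without the 3 arrays; it was 0 to 1 when an animal was left out. With the replicate block, the same animal sharing a correlation over both areas, that count was 1 and RSAD2 differed by -1.28, so no call changed. In the pools 0 became 94 with the first spot, 2 with the second, 16 after centring, 1 after scaling and 257 with the 4 arrays as separate samples; of the 6 genes 1 then passed with the first spot and 2 with separate arrays. RSAD2 in the pools turned to -0.019 with the second spot, -0.0037 after centring and -0.0027 after scaling; leaving out a pool pair gave -0.082 to 0.082 for RSAD2 and -0.020 to 0.14 for OASL, with no test. A correlation of 0.4 left 950 probes for SCNT against CJ, 431 for AI against CJ and 8 for SCNT against AI through CJ (24 with the probe's own correlation). Leaving out an animal gave 2206 to 3804 probes for SCNT against CJ, 1443 (without AI animal 2) to 2840 for AI against CJ, and 7 (without CJ animal 3) to 58 for SCNT against AI through CJ. Without the 3 arrays, intercaruncular IFIT5 was -0.019 and IFI6 -0.17. With an animal left out, signs turned within these ranges: intercaruncular MX2 -0.25 to 0.71, IFIT5 -0.096 to 0.35 and IFI6 -0.14 to 1.05; area difference of MX2 -0.998 to 0.053; OASL in AI against CJ -0.20 to 0.026; and through CJ MX1 -0.44 to 1.98, MX2 -0.13 to 1.84, RSAD2 -0.13 to 2.81, IFIT5 -0.27 to 0.91 and IFI6 -0.81 to 1.62, the low end in each being without AI animal 3.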
